A study of Mus musculus with 60 samples.

Results

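Angptl4, Pdk4, Acot1, Plin2, Fabp3, Lpl and Vldlr are genes that peroxisome proliferator-activated receptors (PPARs) are known to activate during fasting and lipid storage. They were taken by symbol from the GENCODE mouse annotation of GRCm38 and followed in kidney RNA of control mice and mice lacking the clock factor BMAL1 in the renal tubule. Each of the 7 symbols matched 1 of the 55335 deposited Ensembl gene rows, and all 7 were among the 15546 genes retained for testing, with between 42 and 48615 reads for any of them in any mouse. RNA-seq counts came from 60 male mice of the C57BL/6J background, killed at 6 zeitgeber times (ZT, hours after lights on in a cycle of 12 hours of light and 12 hours of dark), with 5 mice per genotype and time. The mice named cKOt carried Bmal1lox/lox/Pax8-rtTA/LC-1 Cre, in which the Pax8 promoter drives the transactivator in tubule cells and doxycycline turns on Cre. Controls were their Bmal1lox/lox littermates, for which no transgene is named. Both genotypes drank doxycycline (2 mg/mL) with sucrose (20 mg/mL) for 2 weeks from the age of 8 weeks, and kidneys were taken 4 weeks after that. Chow and water were freely available, and no group was fasted.

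The labels name the tissue renal tubule, whereas the methods of the study describe frozen pieces of whole kidney, so glomerular, vascular and stromal RNA may be present and these cells keep Bmal1. Summed markers of the proximal tubule ran from 9133 to 14475 CPM (counts scaled to the size of the library) over the 60 mice, those of podocytes from 252 to 369 CPM, and those of endothelium from 271 to 394 CPM. In bulk RNA, fewer cells of a type and less RNA per cell cannot be told apart. Reads of Arntl (Bmal1) are summed over the whole gene, so they do not isolate the deleted part. Arntl swung between mean levels of 2.73 CPM at ZT8 and 48.4 CPM at ZT0 in control mice, and stayed between 17.4 and 24.4 CPM in cKOt mice. Depth was even, from 17791420 to 20906706 counts on genes per mouse. The authors had sequenced more mice and kept 5 per group by RNA integrity and distance from the others.

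Several mice stood apart from the 4 others of their group. Over 100 genes of the lipid lists described below, the cKOt mouse ZT12 replicate 3 lay outside its group for 15 genes, all high. The cKOt mouse ZT20 replicate 1 lay outside for 13, all high, and the control mouse ZT16 replicate 1 for 11, 10 of them high. In cKOt ZT12 replicate 3, Acot1 (52.3 CPM) and Plin2 (95.3 CPM) were the members affected. In cKOt ZT20 replicate 1, Angptl4 (21.3 CPM) and Pdk4 (57.5 CPM) were. No member was among the genes of the control mouse. Of other listed genes, named here after their values were seen, Cyp4a10, a fatty acid hydroxylase, was at 691.5 CPM in cKOt ZT12 replicate 3 against 152 to 208 CPM in the rest of its group, and Cidea, a droplet protein of fat cells, was at 9.88 CPM in cKOt ZT20 replicate 1 against 0.0523 to 1.17 CPM. The latter mouse also had the highest summed adipocyte markers of all 60 mice (34.1 CPM, against a median of 4.09 CPM in cKOt mice and 5.10 CPM in control mice), whereas cKOt ZT12 replicate 3 was near the median (4.32 CPM). Of these markers, Plin1 and Cidec were also among the 13 genes that set cKOt ZT20 replicate 1 apart, so the 2 observations overlap. Results below are therefore given without these 2 cKOt mice wherever that changed a call or a direction, or moved a fold by more than 1.5 times. The 2 mice were chosen for high values, of members among others, and the control mouse was kept. Leaving them out lowers the cKOt means of those genes through that choice. Calls gained this way show dependence on these mice and are not separate support.

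PPARs are nuclear receptors that bind fatty acids and their derivatives, pair with a retinoid X receptor (RXR), and raise transcription from DNA elements made of direct repeats. PPAR-alpha is best known for switching liver, heart and kidney to fat burning during fasting, and the proximal tubule, which meets most of its energy need by oxidizing fatty acids, expresses it strongly. The products of the 7 genes act at successive steps of the route of fat into the cell. Lipoprotein lipase (LPL) releases fatty acids from circulating triglyceride, ANGPTL4 inhibits it, and VLDLR takes up triglyceride-rich particles. FABP3 carries fatty acids in the cytosol, perilipin 2 (PLIN2) coats the droplets that store them, ACOT1 splits long-chain acyl-CoA back to free fatty acid, and PDK4 shuts pyruvate dehydrogenase so that carbohydrate is spared.

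Averaged over the day, 4 members were lower in cKOt than in control mice, Angptl4 by far the most, 1 was slightly higher, and 2 did not pass the test. Per kilobase of exon, Lpl was the most abundant member in control mice (165 CPM per kb), followed by Fabp3 (45.6), Plin2 (26.0), Vldlr (15.8), Angptl4 (9.72), Pdk4 (9.44) and Acot1 (8.60). Over the 30 control mice the ranges of the last 4 overlapped, whereas those of Lpl, Fabp3 and Plin2 were apart from each other and from the rest. In cKOt mice Angptl4 had the lowest mean of the 7, at 3.48 CPM per kb. The genotype difference was tested with edgeR's quasi-likelihood test on counts with Benjamini-Hochberg adjustment over the 15546 retained genes, with 1 mean per genotype and time and 2 factors of unwanted variation. Its result is given below as the edgeR adjusted p, and differences are log2 fold changes of cKOt over control. Of the 7 members, 5 passed an adjusted p of 0.05 for the mean over the 6 times, against 50.0% of all genes tested. The 4 that were lower stand against 23.2% of all genes, and the 1 that was higher against 26.8%. The members' median difference was -0.48, against a median of 0.01 over all genes. The genotype difference varied with time of day for 3 members (Pdk4, Acot1 and Fabp3), against 3.08% of all genes.

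**Figure D1:**
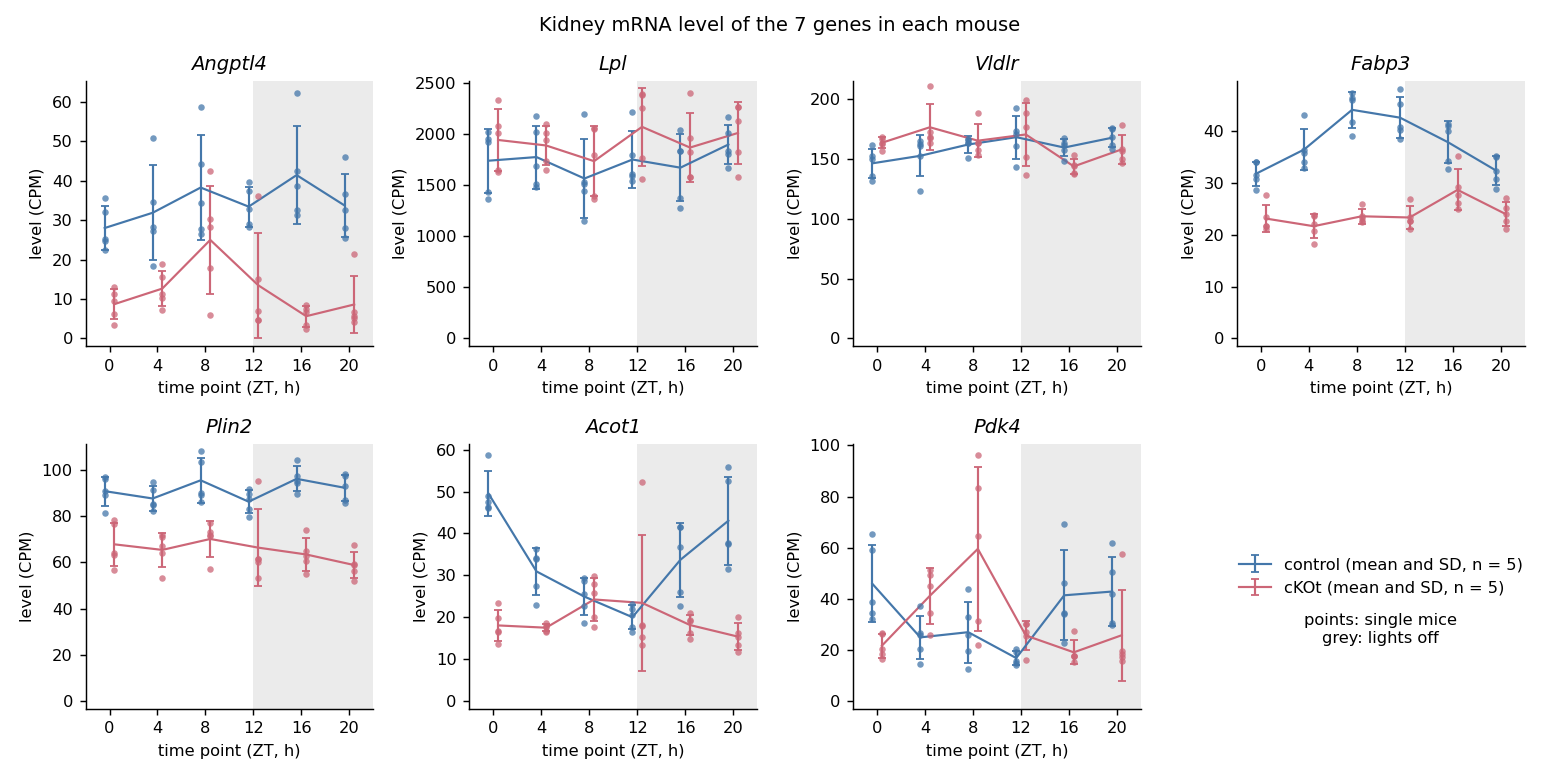
CPM of each of the 7 members (linear axis from 0) against zeitgeber time in hours, 1 point per mouse, control in blue and cKOt in red, with lines and bars for the mean and SD of the 5 mice of each group and grey for lights off. Angptl4, Acot1, Plin2 and Fabp3 lie mostly below control in cKOt mice, the mean of Pdk4 is higher in cKOt mice at ZT4, ZT8 and ZT12 and lower at the other times, and the clouds of Lpl and Vldlr overlap at every time.

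Angptl4 (ENSMUSG00000002289, chromosome 17, 33773750 to 33781830, minus strand, GRCm38) encodes the secreted inhibitor of lipoprotein lipase, one of the genes most responsive to PPAR agonists. Its mean difference was -1.62 (SE 0.16, edgeR adjusted p = 8.29e-13), so that RNA was 3.08 times as high in control as in cKOt mice, and it was lower in cKOt mice at all 6 times. At ZT0 Angptl4 was 22.5, 24.6, 25.3, 31.9 and 35.6 CPM in control mice and 3.40, 6.19, 9.59, 11.2 and 13.0 CPM in cKOt mice. At ZT4 it was 18.3, 27.3, 28.2, 34.6 and 50.8 CPM in control mice and 7.26, 10.3, 11.4, 15.5 and 18.8 CPM in cKOt mice. At ZT8 it was 26.4, 27.8, 34.2, 44.1 and 58.7 CPM in control mice and 5.86, 17.9, 28.3, 30.3 and 42.4 CPM in cKOt mice. The genotypes were fully apart at ZT0 and overlapped at ZT4, by a single mouse, and at ZT8. At ZT12 Angptl4 was 28.3, 28.9, 32.7, 37.3 and 39.8 CPM in control mice and 4.63, 4.64, 6.99, 15.0 and 36.1 CPM in cKOt mice. At ZT16 it was 31.3, 32.6, 38.6, 42.5 and 62.2 CPM in control mice and 2.25, 3.27, 6.76, 7.47 and 8.36 CPM in cKOt mice. At ZT20 it was 25.5, 28.0, 32.5, 36.6 and 45.9 CPM in control mice and 4.11, 5.28, 5.67, 6.64 and 21.3 CPM in cKOt mice. The night-time groups were apart again at ZT16 and ZT20, and at ZT12 only cKOt replicate 3 reached the control values. The difference was -2.90 (SE 0.42, edgeR adjusted p = 2.73e-07) at ZT16, the largest of any member at any time, a ratio of 7.45. It was -2.15 (SE 0.40, edgeR adjusted p = 7.11e-05) at ZT20, -1.69 (SE 0.40, edgeR adjusted p = 0.00203) at ZT0 and -1.35 (SE 0.38, edgeR adjusted p = 0.00669) at ZT12. At ZT4 it was -1.02 (SE 0.40, edgeR adjusted p = 0.0846) and at ZT8 -0.63 (SE 0.36, edgeR adjusted p = 0.233), neither past the threshold. The variation of the difference over the day missed the threshold with all mice (edgeR adjusted p = 0.0693) and passed it without the 2 cKOt mice that stood apart (edgeR adjusted p = 0.00712). These mice were chosen for high values, Angptl4 in ZT20 replicate 1 among them, so the fit without them is not separate support. Without them the difference was -2.03 (edgeR adjusted p = 3.68e-05) at ZT12, -2.67 (edgeR adjusted p = 7.90e-07) at ZT20 and -1.19 (edgeR adjusted p = 0.0118) at ZT4. Within each of the 6 library batches Angptl4 was lower in cKOt mice, by log2 differences of -2.41 to -0.99.

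Lpl (ENSMUSG00000015568, chromosome 8, 68880491 to 68907448, plus strand), the lipase that ANGPTL4 inhibits, differed little between genotypes. Over the 30 mice of a genotype Lpl ran from 1145 CPM through a median of 1739 to 2216 CPM in control mice, and from 1361 CPM through 1947 to 2395 CPM in cKOt mice. The ranges overlapped at all 6 times. Its mean difference of 0.14 (SE 0.06, edgeR adjusted p = 0.0466) lay just past the threshold, and leaving out any 1 of 34 mice, took it back over the threshold (log2 differences of 0.12 to 0.16 and adjusted p of 0.0113 to 0.0817 over all 60 omissions). Without the 2 cKOt mice that stood apart it was 0.13 (edgeR adjusted p = 0.0655). Within batches the sign was mixed, from -0.19 to 0.33. No single time passed, with differences between -0.03 at ZT4 and 0.21 at ZT12, and no effect of time was detected in either genotype (edgeR adjusted p = 0.727 in control and 0.864 in cKOt mice). Macrophages and adipocytes also make Lpl. Of the macrophage markers 5 of 6 were lower in cKOt mice, and none of the 7 adipocyte markers passed. Their part in the level of Lpl was not tested.

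Vldlr (ENSMUSG00000024924, chromosome 19, 27216484 to 27254231, plus strand), the receptor for triglyceride-rich lipoproteins, ran from 123 CPM through a median of 162 to 193 CPM in control mice and from 137 CPM through 163 to 211 CPM in cKOt mice. The genotypes overlapped at every time. The mean difference was 0.01 (SE 0.02, edgeR adjusted p = 0.639), with a 95% interval of -0.03 to 0.05, the narrowest interval of the 7 members. Vldlr was higher in cKOt mice at ZT0, at 0.16 (SE 0.05, edgeR adjusted p = 0.0280), and lower at ZT16, at -0.14 (SE 0.05, edgeR adjusted p = 0.0407). Both calls depended on single mice, being lost without any 1 of 4 mice at ZT0 (adjusted p up to 0.138) and any 1 of 8 at ZT16 (up to 0.117). They also depended on the processing, since the call at ZT0 held in 5 of 8 alternatives and in 2 of 5 omissions of a replicate number, and that at ZT16 in 6 of 8 and 0 of 5. Both were lost without the factors of unwanted variation and with library batch in their place. At ZT0 the values were 132, 136, 150.2, 153 and 162 CPM in control mice and 156, 163, 164, 167 and 168 CPM in cKOt mice. At ZT16 they were 148, 158, 162, 163 and 168 CPM in control mice and 138, 139, 144, 145 and 154 CPM in cKOt mice. The overlap at ZT0 came from the control mouse at 162 CPM, and that at ZT16 from the cKOt mouse at 154 CPM. The variation of the difference over the day did not pass with all mice (edgeR adjusted p = 0.0666) and passed without the 2 cKOt mice that stood apart (edgeR adjusted p = 0.0420).

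Fabp3 (ENSMUSG00000028773, chromosome 4, 130308595 to 130315463, plus strand), the heart-type fatty acid binding protein, had the smallest adjusted p of the 7. It was lower in cKOt mice at all 6 times, with a mean difference of -0.63 (SE 0.03, edgeR adjusted p = 1.91e-23), a ratio of 1.54 for control over cKOt. At ZT0 Fabp3 was 28.7, 30.7, 31.4, 34.0 and 34.0 CPM in control mice and 21.2, 21.6, 21.8, 23.4 and 27.6 CPM in cKOt mice. At ZT4 it was 32.9, 34.1, 35.7, 36.3 and 43.0 CPM in control mice and 18.2, 20.6, 22.1, 23.5 and 23.8 CPM in cKOt mice. At ZT8 it was 39.1, 41.8, 45.9, 46.3 and 47.3 CPM in control mice and 22.4, 22.6, 23.3, 23.5 and 26.0 CPM in cKOt mice. All cKOt mice lay below all control mice at these 3 times, and the gap was widest at ZT8. At ZT12 Fabp3 was 38.5, 40.2, 40.8, 45.3 and 48.1 CPM in control mice and 21.0, 22.5, 22.7, 23.4 and 26.9 CPM in cKOt mice. At ZT16 it was 32.8, 34.2, 40.0, 40.9 and 41.3 CPM in control mice and 25.0, 26.2, 27.7, 29.3 and 35.1 CPM in cKOt mice. At ZT20 it was 28.8, 30.7, 32.2, 35.0 and 35.2 CPM in control mice and 21.2, 22.7, 23.9, 25.1 and 27.1 CPM in cKOt mice. Only ZT16 showed overlap, through cKOt replicate 3 at 35.1 CPM. Every time passed the test, from -0.41 (SE 0.08, edgeR adjusted p = 6.56e-05) at ZT16 to -0.93 (SE 0.08, edgeR adjusted p = 6.34e-14) at ZT8, and the size of the difference changed over the day (edgeR adjusted p = 0.00127). Control mice rose from 31.8 ± 2.30 CPM (SD, n = 5) at ZT0 to 44.1 ± 3.49 CPM at ZT8, whereas cKOt mice were at 23.1 ± 2.67 and 23.5 ± 1.45 CPM at those times and highest at ZT16 (28.6 ± 3.96 CPM). The batch-wise differences were all negative, -0.66 to -0.51. Fabp3 overlaps Zcchc17 and Gm10570 on the opposite strand. The library kit keeps strand, but the strand setting of the counting is not given in the sources used here, so reads of these genes may not be told apart. Zcchc17 differed by -0.21 (SE 0.04, edgeR adjusted p = 2.95e-06) and Gm10570 by -0.53 (SE 0.11, edgeR adjusted p = 7.97e-05), both lower as well. Of the 150-base stretches of Fabp3 transcripts, 15.9% also occur in the pseudogene Fabp3-ps1, where reads align in more than 1 place and were not counted.

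Plin2 (ENSMUSG00000028494, chromosome 4, 86648386 to 86670060, minus strand), the main droplet coat protein outside fat tissue, was lower by a steady amount, -0.48 (SE 0.04, edgeR adjusted p = 6.38e-16) in the mean and between -0.35 and -0.65 at the single times, all 6 of which passed. At ZT0 Plin2 was 81.1, 89.3, 90.7, 95.9 and 97.0 CPM in control mice and 56.6, 63.1, 64.2, 76.7 and 78.4 CPM in cKOt mice. At ZT4 it was 82.0, 84.6, 85.4, 91.2 and 94.9 CPM in control mice and 53.2, 63.9, 66.9, 71.0 and 72.0 CPM in cKOt mice. At ZT8 it was 86.2, 89.3, 90.2, 103 and 108 CPM in control mice and 57.0, 71.2, 72.0, 73.2 and 77.2 CPM in cKOt mice. No cKOt mouse reached a control mouse at these times. At ZT12 Plin2 was 79.4, 83.1, 87.3, 89.5 and 91.8 CPM in control mice and 53.3, 60.0, 61.5, 61.7 and 95.3 CPM in cKOt mice. At ZT16 it was 89.7, 94.3, 95.1, 97.3 and 104 CPM in control mice and 54.9, 60.5, 62.7, 65.1 and 73.9 CPM in cKOt mice. At ZT20 it was 85.7, 87.1, 92.9, 97.3 and 98.3 CPM in control mice and 52.0, 56.3, 58.9, 59.4 and 67.6 CPM in cKOt mice. The only cKOt mouse above any control mouse of its time was ZT12 replicate 3, at 95.3 CPM, and without it the ZT12 difference was -0.52 (edgeR adjusted p = 3.57e-06) against -0.36 (SE 0.09, edgeR adjusted p = 0.00292) with it. No change of the difference with time was detected (edgeR adjusted p = 0.501), nor an effect of time in control (edgeR adjusted p = 0.585) or cKOt mice (edgeR adjusted p = 0.283). Batch-wise differences were -0.56 to -0.29.

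The sequences before the annotated starts of Plin2, Pdk4 and Acot1 are shown because these members stand for 3 of the patterns among the members. These are a steady difference over the day, a reversal between night and day, and a difference called at night and early day only. Other members, such as Fabp3, followed none of these 3. They are RefSeq bases on GRCm38.p6, printed along the gene's strand and ending just before the start. Capitals mark the best match on either strand to the PPAR element AGGTCANAGGTCA (a direct repeat spaced by 1 base) and, at the end of the Plin2 run, the first letters of an E-box, CACGTG, the motif that BMAL1 and CLOCK bind, which straddles the start. Positions in the text are counted from the RefSeq start, which lies 1 base inside the GENCODE start for Plin2.
Plin2, chr4:86670061-86670309, minus strand: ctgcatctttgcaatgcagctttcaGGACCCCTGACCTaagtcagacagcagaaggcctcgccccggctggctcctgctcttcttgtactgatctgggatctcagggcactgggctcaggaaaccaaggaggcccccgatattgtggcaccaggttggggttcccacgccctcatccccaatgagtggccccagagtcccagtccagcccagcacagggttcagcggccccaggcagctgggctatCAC
Pdk4, chr6:5496310-5496528, minus strand: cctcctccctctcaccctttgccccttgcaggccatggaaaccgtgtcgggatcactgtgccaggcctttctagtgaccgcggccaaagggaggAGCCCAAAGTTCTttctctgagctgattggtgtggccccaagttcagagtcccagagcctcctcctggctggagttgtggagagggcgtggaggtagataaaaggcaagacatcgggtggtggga
Acot1, chr12:84009252-84009489, plus strand: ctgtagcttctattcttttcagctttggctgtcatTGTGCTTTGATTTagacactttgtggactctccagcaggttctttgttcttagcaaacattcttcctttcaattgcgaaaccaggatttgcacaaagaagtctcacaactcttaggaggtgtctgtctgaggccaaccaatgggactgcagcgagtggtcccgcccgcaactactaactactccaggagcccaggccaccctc

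Of the 12 fixed letters of the repeat, Plin2 matched 10, starting 225 bases before the start, a score that 3.86% of the 32851 mouse promoter windows of 300 bases reached. Plin2 also held the single complete repeat unit AGGTCA found among the members' windows, within that match (16.3% of all windows hold one on either strand) and the single E-box, which began 4 bases before the start (7.15% of all windows). Pdk4, Acot1, Fabp3 and 1 window of Vldlr matched 8 of the 12 letters, a score that 79.8% of all windows reached, and another Vldlr window matched 7. None of these held an E-box or a repeat unit. A match is only a description of these letters in this window, and elements outside it were not searched. Windows for Angptl4 and Lpl were not analysed here.

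Acot1 (ENSMUSG00000072949, chromosome 12, 84009490 to 84018371, plus strand), the cytosolic long-chain acyl-CoA thioesterase, was lower in cKOt mice at night and early in the day, and did not pass the test at ZT8 and ZT12. The mean difference was -0.72 (SE 0.08, edgeR adjusted p = 1.24e-10), and its change over the day had the smallest adjusted p of the 7 (edgeR adjusted p = 1.51e-05). At ZT0 Acot1 was 46.1, 46.3, 47.5, 48.8 and 58.8 CPM in control mice and 13.6, 16.5, 16.8, 19.9 and 23.4 CPM in cKOt mice. At ZT4 it was 22.9, 27.5, 33.9, 34.2 and 36.2 CPM in control mice and 16.5, 16.8, 17.8, 17.9 and 18.6 CPM in cKOt mice. At ZT8 it was 18.5, 22.6, 25.5, 28.6 and 29.3 CPM in control mice and 17.6, 20.1, 25.7, 27.9 and 29.9 CPM in cKOt mice. The genotypes were apart at ZT0 and ZT4 and intermixed at ZT8. At ZT12 Acot1 was 16.6, 17.7, 20.5, 22.1 and 23.2 CPM in control mice and 13.4, 15.3, 18.0, 18.2 and 52.3 CPM in cKOt mice. At ZT16 it was 22.6, 26.1, 36.7, 41.5 and 41.7 CPM in control mice and 14.9, 16.4, 19.2, 19.3 and 21.0 CPM in cKOt mice. At ZT20 it was 31.6, 37.5, 37.7, 52.5 and 55.9 CPM in control mice and 11.6, 13.4, 15.4, 16.3 and 20.2 CPM in cKOt mice. They were apart again at ZT16 and ZT20, and at ZT12 cKOt replicate 3 stood above every other mouse of that time. The difference was -1.56 (SE 0.21, edgeR adjusted p = 6.52e-08) at ZT20, -1.44 (SE 0.20, edgeR adjusted p = 3.88e-07) at ZT0, -0.88 (SE 0.20, edgeR adjusted p = 0.000927) at ZT16 and -0.62 (SE 0.22, edgeR adjusted p = 0.0454) at ZT4, the last call being lost without any 1 of 11 mice (adjusted p up to 0.108). At ZT8 it was -0.06 (SE 0.20, edgeR adjusted p = 0.889). At ZT12 it was 0.21 (SE 0.21, edgeR adjusted p = 0.538), and -0.26 (edgeR adjusted p = 0.339) without cKOt replicate 3, so the sign at that time rested on 1 mouse. Within batches the difference was -1.08 to -0.36. Of the 150-base stretches of Acot1 transcripts, 6.92% are shared with Acot2, Acot3, Acot5 or 4732463B04Rik, and reads there were not counted. Acot2, the mitochondrial paralog, named here after its values were seen, was higher in the mean, 0.20 (SE 0.06, edgeR adjusted p = 0.00721), at 10.7 ± 2.09 CPM in the controls against 12.3 ± 3.61 CPM in cKOt mice.

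Pdk4 (ENSMUSG00000019577, chromosome 6, 5483351 to 5496309, minus strand), the fasting-induced kinase of pyruvate dehydrogenase, did not pass in the mean, -0.07 (SE 0.13, edgeR adjusted p = 0.673) with a 95% interval of -0.32 to 0.18, and its fitted differences were negative at 3 times and positive at the other 3. The change over the day passed (edgeR adjusted p = 0.000101). At ZT0 Pdk4 was 32.0, 34.5, 38.7, 58.9 and 65.3 CPM in control mice and 16.3, 18.5, 20.5, 26.3 and 26.7 CPM in cKOt mice. At ZT4 it was 14.4, 20.4, 26.0, 26.7 and 37.2 CPM in control mice and 25.7, 34.3, 45.0, 49.4 and 51.4 CPM in cKOt mice. At ZT8 it was 12.6, 19.7, 25.9, 32.8 and 43.7 CPM in control mice and 21.8, 31.5, 64.6, 83.4 and 96.2 CPM in cKOt mice. ZT0 was the only time without overlap, with all cKOt mice low. At ZT8 3 cKOt mice exceeded every control mouse. At ZT12 Pdk4 was 14.2, 15.0, 15.6, 19.1 and 20.2 CPM in control mice and 15.9, 25.3, 26.9, 30.0 and 30.1 CPM in cKOt mice. At ZT16 it was 22.8, 33.9, 34.6, 46.3 and 69.2 CPM in control mice and 15.4, 17.5, 17.5, 17.7 and 27.3 CPM in cKOt mice. At ZT20 it was 29.6, 30.4, 41.9, 50.5 and 61.7 CPM in control mice and 15.8, 17.3, 18.5, 19.7 and 57.5 CPM in cKOt mice. At ZT20 4 of the 5 cKOt mice lay below all control mice and replicate 1 lay between their 2 highest. The difference was 1.25 (SE 0.31, edgeR adjusted p = 0.00196) at ZT8 (2.37 times control), -1.03 (SE 0.31, edgeR adjusted p = 0.0189) at ZT0 and -1.02 (SE 0.32, edgeR adjusted p = 0.0153) at ZT16, and did not pass at ZT4, 0.70 (SE 0.32, edgeR adjusted p = 0.159), ZT12, 0.52 (SE 0.33, edgeR adjusted p = 0.288), or ZT20, -0.84 (SE 0.31, edgeR adjusted p = 0.0650). Without cKOt ZT20 replicate 1 the ZT20 difference was -1.33 (edgeR adjusted p = 0.00142), past the threshold. It also passed without cKOt ZT8 replicate 3 or 5. The ZT0 call was lost without control replicate 5 (edgeR adjusted p = 0.0687) or cKOt replicate 3 (edgeR adjusted p = 0.0525), and the ZT16 call without control replicate 5 (edgeR adjusted p = 0.0742). The interaction passed in all 60 omissions, with adjusted p up to 0.000327.

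By time of day, 6 members passed at ZT0, against 12.1% of all genes, with 5 lower (5.49% of all genes) and Vldlr higher (6.63%). At ZT4 3 passed (12.5%), all lower (6.34%, with 6.20% of all genes higher). At ZT8 3 passed (19.9%), Plin2 and Fabp3 lower (9.29%) and Pdk4 higher (10.6%). At ZT12 3 passed (21.0%), all lower (10.8%, with 10.3% of all genes higher), at ZT16 6, all lower (19.8% called and 9.75% lower, with 10.0% higher), and at ZT20 4, all lower (13.8% called and 7.79% lower, with 5.98% higher). Fabp3 and Plin2 were called at every time, Angptl4 and Acot1 at 4 each. Counted by ranges, cKOt mice lay wholly below control mice for 5 members at ZT0, as they did for 3.24% of all genes (7.30% without overlap in either direction). The same held for 3 members at ZT4 (5.47% below, 11.1% in either direction), 2 at ZT8 (4.46% and 9.49%), 1 at ZT12 (4.67% and 9.73%), 3 at ZT16 (4.64% and 9.04%) and 4 at ZT20 (3.83% and 6.86%). No member was wholly above control at any time, and none was wholly below at all 6 times, as 0.675% of all genes were. Fitted differences were negative at all 6 times for Angptl4, Plin2 and Fabp3, as for 16.3% of all genes.

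**Figure D2:**
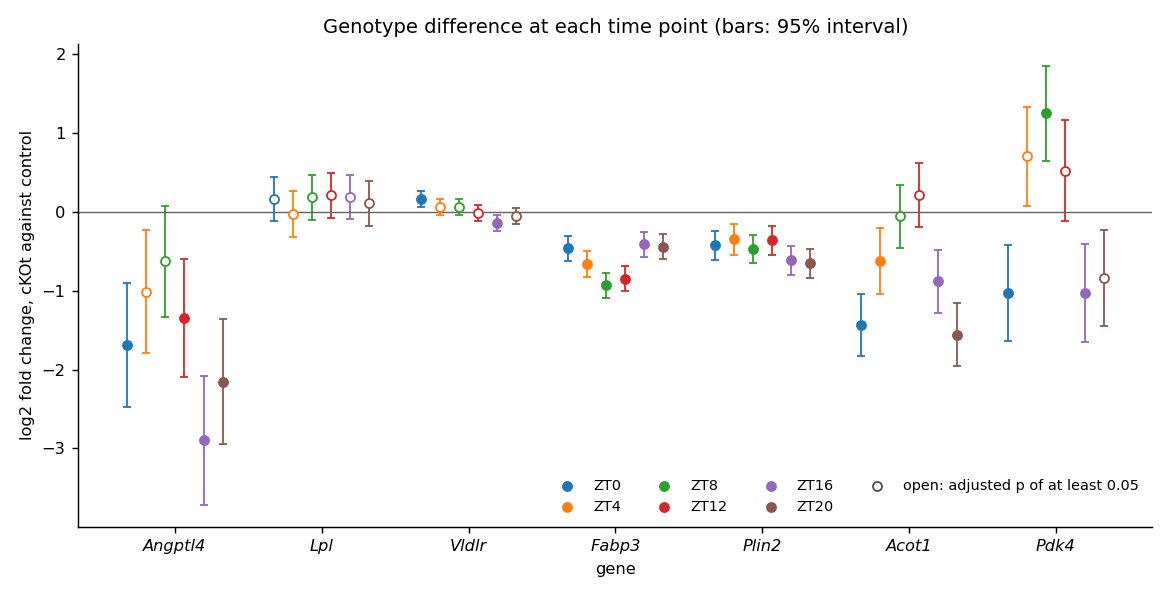
Log2 fold change of cKOt over control for the 7 members, with 1 colour per zeitgeber time, bars for the 95% interval from the edgeR fit and filled points where the adjusted p was under 0.05. Angptl4 is deepest at ZT16 (-2.90), Pdk4 goes from -1.03 at ZT0 to 1.25 at ZT8, and Plin2 stays between -0.35 and -0.65.

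Variation over the day was found among the members in both genotypes. Across the 6 times an effect of time passed for 3 members in control mice (Pdk4, Acot1 and Fabp3, against 30.6% of all genes) and for 4 in cKOt mice (Angptl4, Pdk4, Fabp3 and Vldlr, against 26.6%). For Angptl4 the edgeR adjusted p was 0.736 in control and 0.000329 in cKOt mice, and for Acot1 2.70e-06 and 0.0582. Calls in the cKOt mice were sensitive to single mice: that of Vldlr (edgeR adjusted p = 0.0406) was lost without any 1 of 13 and that of Fabp3 (edgeR adjusted p = 0.0281) without cKOt ZT16 replicate 1, 2 or 3, whereas Acot1 gained one without any 1 of 11 (edgeR adjusted p = 0.0198 without both cKOt mice that stood apart). Harmonic regression with a period of 24 h weighed 5 models by BIC weight: no rhythm (model 1), a rhythm in control mice only (2), in cKOt mice only (3), the same in both (4), or a different one in each (5). A weight of 0.65 assigned a model and no p was computed. Amplitudes below are peak-to-trough log2 differences.

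Pdk4, Acot1 and Fabp3 went to model 5, as 2.37% of all genes did, Angptl4 to model 3 (3.42%) and Lpl to model 1 (34.0%), while Plin2 and Vldlr reached no assignment (28.7%). No member went to model 2 (6.25% of all genes) or model 4 (25.2%), and the 4 members in models 2 to 5 stand against 37.3% of all genes. Without the 2 cKOt mice that stood apart Vldlr went to model 5 (weight 0.665), which makes 5 such members. Angptl4 had an amplitude of 1.75 in cKOt mice with a peak at ZT6.58, against 0.50 in control mice, with a weight of 0.947. Pdk4 had a fitted amplitude of 1.31 in control and 1.31 in cKOt mice, with peaks at ZT21.2 and ZT6.53, 9.29 h apart (weight 0.996). Acot1 peaked at ZT22.1 with an amplitude of 1.21 in control mice and at ZT8.70 with 0.54 in cKOt mice, 10.6 h apart (weight 0.813). The median distance between the peaks of the 368 model 5 genes was 3.96 h, and 8.42% of them were at least as far apart as Pdk4 and 3.80% as Acot1. Fabp3 peaked at ZT10.4 with an amplitude of 0.51 in control mice and at ZT15.9 with 0.25 in cKOt mice (weight 0.971). In cKOt mice the fitted peaks of Angptl4, Pdk4 and Acot1 fell between ZT6.53 and ZT8.70, in the middle of the light phase, which is the rest phase of mice. Leaving out each mouse in turn changed the model of none of Angptl4, Pdk4, Fabp3 and Lpl, of Acot1 in 4 of 60 cases (to no assignment), of Plin2 in 13 and of Vldlr in 7. The model of Acot1 also depended on the mice and the processing: model 2, a rhythm in control mice only, was assigned without replicate number 2, 3 or 5 of every group (weights 0.690, 0.715 and 0.791), and no model without correction for unwanted variation (highest weight 0.534) or without the 8 mice rich in adipocyte markers described below (0.630). Without those 8 mice Vldlr went to model 5 (0.659). Over the 60 omissions of a single mouse, the peak of Angptl4 in cKOt mice ran from ZT6.06 to ZT6.94 and that of Pdk4 from ZT6.26 to ZT6.86. Over the omissions of a replicate number, they ran from ZT5.53 to ZT7.20 and from ZT6.24 to ZT6.95.

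**Figure D3:**
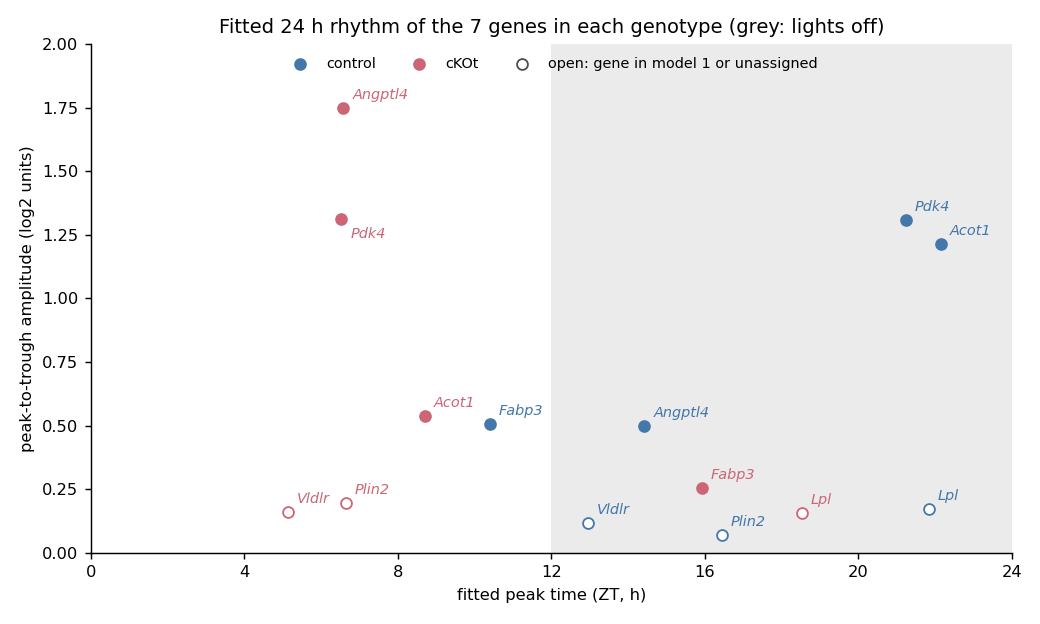
Peak-to-trough amplitude (log2 units) against fitted peak time (ZT, hours) of each of the 7 genes, control in blue and cKOt in red, from a 24 h curve fitted to each genotype, with open points for genes in model 1 or without a model and grey for lights off. Pdk4 and Acot1 sit at ZT21.2 and ZT22.1 in control mice and at ZT6.53 and ZT8.70 in cKOt mice, and Angptl4 has the highest amplitude, 1.75 in cKOt mice.

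Mice of the same genotype and time differed in these genes, and several members deviated together. Deviations of log2 CPM from the mean of the 12 groups were correlated over the 60 mice for all 21 pairs of members, with 100000 permutations within groups. The 2 factors of unwanted variation were not removed from these deviations or from those set against adipocyte markers below. Their part in the coefficients was not tested. For 8 pairs the adjusted p of Pearson's r passed, and 12 of 21 coefficients were positive. Pairs of other genes were not tested, so the share that would pass among all genes is unknown. The count therefore does not set the members apart from other genes. Angptl4 and Pdk4 varied together (r = 0.62, rho = 0.61, permutation p adjusted over 21 pairs 0.000420 for r and 0.000420 for rho), and r was 0.59 without the 2 mice farthest from the median of the first gene and 0.64 with batch removed. So did Angptl4 and Acot1 (r = 0.61, rho = 0.54, permutation p adjusted over 21 pairs 0.000525 for r and 0.000945 for rho), and r was 0.52 without the 2 mice farthest from the median of the first gene and 0.60 with batch removed. The coefficients of Plin2 fell more without the farthest mice. For Acot1 and Plin2 (r = 0.58, rho = 0.44, permutation p adjusted over 21 pairs 0.00499 for r and 0.00635 for rho) r was 0.35 without the 2 mice farthest from the median of the first gene and 0.53 with batch removed. For Angptl4 and Plin2 (r = 0.53, rho = 0.40, permutation p adjusted over 21 pairs 0.00865 for r and 0.0257 for rho) r was 0.35 without the 2 mice farthest from the median of the first gene and 0.57 with batch removed. Pdk4 and Acot1 were linked less tightly (r = 0.37, rho = 0.40, permutation p adjusted over 21 pairs 0.0229 for r and 0.0222 for rho), and r was 0.32 without the 2 mice farthest from the median of the first gene and 0.40 with batch removed.

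Negative relations joined the other members. Fabp3 and Vldlr moved in opposite directions (r = -0.53, rho = -0.50, permutation p adjusted over 21 pairs 0.000840 for r and 0.00168 for rho), and r was -0.57 without the 2 mice farthest from the median of the first gene and -0.57 with batch removed. Fabp3 and Lpl did so less strongly (r = -0.35, rho = -0.34, permutation p adjusted over 21 pairs 0.0337 for r and 0.0479 for rho), and r was -0.31 without the 2 mice farthest from the median of the first gene and -0.43 with batch removed. For Plin2 and Vldlr the pair passed by r but not by rank (r = -0.39, rho = -0.24, permutation p adjusted over 21 pairs 0.0417 for r and 0.156 for rho), and r was -0.28 without the 2 mice farthest from the median of the first gene and -0.31 with batch removed. Summed adipocyte markers, which reached 15 CPM or more in 8 mice (3 control and 5 cKOt), passed no adjusted test against any of the 7 members by Pearson's r, with coefficients from -0.05 for Vldlr to 0.34 for Plin2 (permutation p of the latter 0.0509, adjusted over 7 relations 0.178). By rank Plin2 passed (rho = 0.40, permutation p adjusted over 7 relations 0.0364), and r was 0.45 without the 2 mice farthest from the median of the marker sum and 0.46 with batch removed. Without those 8 mice the mean differences were -1.74 for Angptl4, -0.73 for Acot1, -0.51 for Plin2 and -0.60 for Fabp3, all still called, and 0.12 (edgeR adjusted p = 0.126) for Lpl, no longer called. The Pdk4 difference at ZT20 was then -1.24 (edgeR adjusted p = 0.0108).

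**Figure D4:**
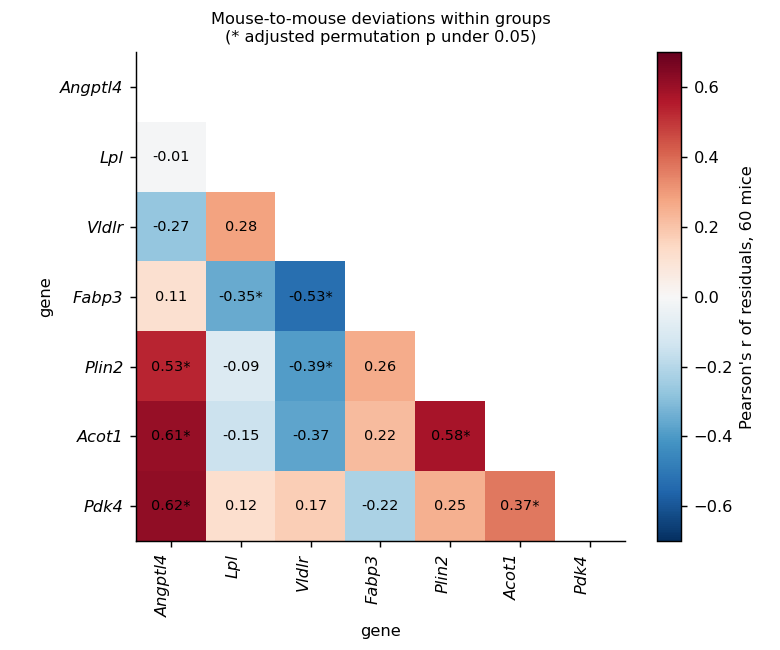
Pearson's r, as colour and printed value, between the within-group deviations of log2 CPM of each pair of members over the 60 mice, with an asterisk where the adjusted permutation p was under 0.05. The highest values join Angptl4 with Pdk4 (0.62) and Acot1 (0.61), and the lowest joins Fabp3 and Vldlr (-0.53).

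Among the receptors, the sharpest contrast was Ppard, the widely expressed delta receptor, whose mRNA was far higher in cKOt mice, at 23.6 ± 17.2 CPM in the controls against 107 ± 35.1 CPM in cKOt mice (mean ± SD, n = 30). Its difference was 2.43 (SE 0.08, edgeR adjusted p = 1.41e-31), and the control mice ranged from 9.67 CPM at ZT8 to 47.7 CPM at ZT0 in the group means, while the cKOt groups stayed between 78.1 and 138 CPM. In control mice Ppard peaked at ZT21.7 with an amplitude of 2.29. Ppara, the fasting receptor, was lower, -0.30 (SE 0.04, edgeR adjusted p = 5.55e-09), at 76.6 ± 11.4 CPM in the controls against 62.3 ± 8.87 CPM in cKOt mice, as were Pparg, the adipocyte receptor, -0.32 (SE 0.08, edgeR adjusted p = 0.000782), and the partners Rxra, -0.19 (SE 0.02, edgeR adjusted p = 5.74e-12), and Rxrg, -0.65 (SE 0.19, edgeR adjusted p = 0.00337). Rxrb did not pass, -0.05 (SE 0.02, edgeR adjusted p = 0.0839). The coactivator gene Ppargc1a was higher, 0.10 (SE 0.03, edgeR adjusted p = 0.00224), and Ppargc1b lower, -0.16 (SE 0.07, edgeR adjusted p = 0.0492). Of the 8 receptor and partner genes, 2 were higher, 5 lower and 1 was not called, with a median of -0.17. Rxrg was scarce, at 0.363 CPM on average.

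Other genes of the pathway were counted from lists by role, against the 23.2% of all genes that were lower and 26.8% that were higher and the median of 0.01. Peroxisomal oxidation and omega-hydroxylation had 7 of 9 genes lower and 1 higher (median -0.46). Genes with the most reads in each list are named, and here they included Ehhadh, the bifunctional enzyme of peroxisomal oxidation, at -0.46 (SE 0.06, edgeR adjusted p = 4.67e-10), and Cyp4a31, a fatty acid hydroxylase, at -0.59 (SE 0.07, edgeR adjusted p = 2.33e-10). Other acyl-CoA thioesterases and synthetases had 9 of 12 lower and 3 higher (median -0.25), with Acot12 at -0.31 (SE 0.03, edgeR adjusted p = 1.10e-12), Acot4 at -0.32 (SE 0.04, edgeR adjusted p = 1.27e-09) and Acsl1, which activates fatty acids, higher at 0.42 (SE 0.04, edgeR adjusted p = 3.24e-14). The carnitine shuttle and mitochondrial oxidation had 8 of 13 lower and 3 higher (median -0.13). There Cpt1a, the gate of the shuttle, was at -0.42 (SE 0.03, edgeR adjusted p = 5.73e-19) and Hadh at -0.13 (SE 0.02, edgeR adjusted p = 4.33e-07), while Acadm, -0.07 (SE 0.03, edgeR adjusted p = 0.0691), did not pass. Other fasting genes had 3 of 7 lower and 1 higher (median -0.25): Ucp2, a mitochondrial carrier, was at -1.52 (SE 0.06, edgeR adjusted p = 3.64e-30), and Txnip, -0.05 (SE 0.04, edgeR adjusted p = 0.394), did not pass. Droplet and lipolysis genes had 9 of 16 lower and 3 higher (median -0.11), with Dgat2, which makes triglyceride, at -0.32 (SE 0.02, edgeR adjusted p = 2.72e-18), Cideb at -0.09 (SE 0.02, edgeR adjusted p = 0.00246) and Abhd5, the activator of the main triglyceride lipase, at -0.39 (SE 0.02, edgeR adjusted p = 1.67e-23).

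Fatty acid uptake and binding genes were split, 3 of 9 lower and 2 higher (median 0.07). Slc27a2, -0.41 (SE 0.02, edgeR adjusted p = 1.16e-21), and Cd36, -0.55 (SE 0.04, edgeR adjusted p = 2.24e-19), both fatty acid transporters, were lower, and Got2, which also serves as a mitochondrial transaminase, was higher, 0.11 (SE 0.02, edgeR adjusted p = 1.72e-05). Lipoprotein lipolysis and receptor genes had 5 of 11 lower and 3 higher (median -0.06), among them Lrp2, the endocytic receptor megalin, at -0.09 (SE 0.03, edgeR adjusted p = 0.0170), while Lrpap1, -0.02 (SE 0.02, edgeR adjusted p = 0.414), and Apoe, -0.06 (SE 0.05, edgeR adjusted p = 0.310), did not pass. The pyruvate dehydrogenase complex and its regulators other than Pdk4 had 6 of 11 lower and 2 higher (median -0.05), with small differences in Pdha1, -0.06 (SE 0.02, edgeR adjusted p = 0.00275), Dld, -0.05 (SE 0.01, edgeR adjusted p = 0.00279), and Pdk2, -0.12 (SE 0.03, edgeR adjusted p = 0.000138). None of the list medians was as low as that of the members (-0.48), but that of the peroxisomal list was close (-0.46). The members and lists were chosen with earlier results of these data known, so the order of their medians is a description only. Cpt1a is counted in 2 of these pathway lists. Lrp2 is also a proximal tubule marker in the marker lists, and Plin1 and Cidec are also adipocyte markers there.

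**Figure D5:**
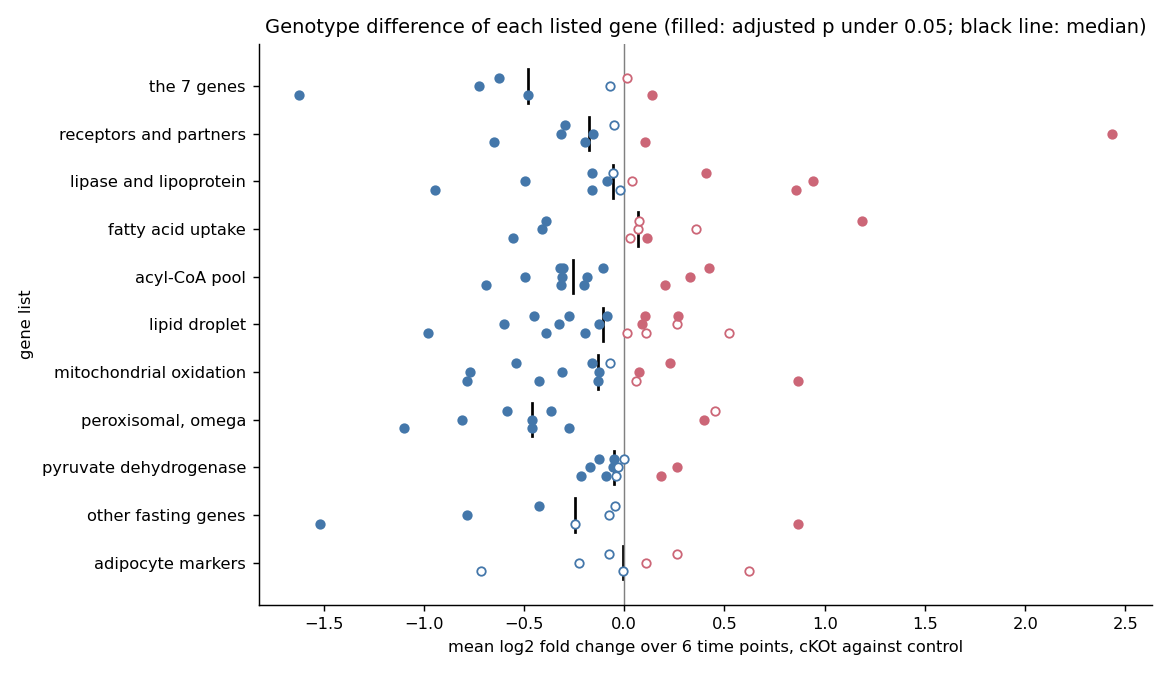
Log2 fold change of cKOt over control, averaged over the 6 times, for every tested gene of each pathway list, and for the adipocyte markers, 1 point per gene, blue below and red above 0, with the list median as a black line and filled points where the adjusted p was under 0.05. The members (median -0.48) and the peroxisomal list (median -0.46) have the lowest medians, and Ppard (2.43) stands far to the other side.

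As a description of shared patterns, the genes whose 12 group means of log2 CPM correlated best with each member were listed over all retained genes. For Angptl4 they were Plin5, the droplet coat protein of oxidative tissues (r = 0.97), Mgam (0.97) and Cyp4b1 (0.96). For Plin2 they were Gcdh (0.98), Cat, the peroxisomal catalase (0.98), and Acaa1b, a peroxisomal thiolase (0.98). For Fabp3 they were Adgrl1 (0.98), Tsku (0.97) and Dnajc6 (0.97), and for Acot1 Lpcat3 (0.91), Acadvl, a mitochondrial acyl-CoA dehydrogenase (0.90), and Cpox (0.89). Pdk4 had no close match, the best being 1700055D18Rik (0.79), Chrna2 (0.78) and 4930515G01Rik (0.76), each below 2 CPM on average. Lpl came nearest to Gm13648 (0.93), Mdp1 (0.92) and Glud1 (0.91), and Vldlr to Dbf4 (0.94), Slc30a4 (0.92) and Ubxn7 (0.91). The 12 points share a split between genotypes, which alone raises the coefficient of genes that differ between them in the same direction and lowers it for opposite directions.

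Markers of other cell types moved somewhat with genotype. Of the tested markers, 5 of 5 endothelial, 5 of 6 macrophage and 4 of 4 fibroblast genes were lower in cKOt mice, with medians of -0.11, -0.22 and -0.22, and of 7 proximal tubule markers 4 were lower and 2 higher (median -0.09). Collecting duct markers leaned the other way, with 3 of 5 higher and 1 lower (median 0.08). Of 4 markers of the thick ascending limb and distal tubule, 2 were higher and 1 lower (median 0.03). Their sum was nevertheless lower in cKOt mice, with a median of 4771 CPM against 5507 CPM in control mice. Of 4 podocyte markers 1 was higher and none lower (median 0.0030), with median sums of 303 CPM in cKOt and 311 CPM in control mice. Summed macrophage markers ranged from 64.3 to 116 CPM in control and from 72.7 to 113 CPM in cKOt mice, and summed fibroblast markers from 46.3 to 160.01 and from 54.7 to 137 CPM. Of 7 adipocyte markers none passed, with sums from 0.378 to 25.7 CPM in control and from 0.154 to 34.1 CPM in cKOt mice. Adipoq was at 0 in 2 mice and Lep in 21. Neither of 2 tested erythrocyte markers passed. The part of these cells in the differences of the 7 members was not tested, beyond the fits without the mice rich in adipocyte markers given above.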

How the data were processed

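RNA-seq of mouse kidney was analysed in 60 samples, 5 per genotype and zeitgeber time, grouped by the labels. Per the study's methods and processing notes, the authors trimmed stranded poly(A) reads with cutadapt 1.8, aligned them to GRCm38 with STAR 2.5.3a and counted uniquely aligned reads per gene with HTSeq 0.9.1, and they deposited raw counts per gene with no normalization. The strand setting of the counting is not given in the sources used here. Alignments that were not unique (24.3 to 29.4% of the tally in each sample) and the other 4 tally rows were left out, which lowers counts of genes with near-identical copies. Depth was 17791420 to 20906706 counts on genes. The 95% intervals are for the fitted genotype difference, with an error estimated from the spread between mice, and do not cover the range of single mice.

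A gene was retained where 1 or more samples reached 1 CPM. Counts were scaled by TMM and tested with edgeR 4.0.16 (R 4.3.3) by its quasi-likelihood test, with 1 mean per genotype and time and 2 RUVs factors as covariates, and p-values were adjusted by Benjamini-Hochberg over all retained genes. RUVs and the dryR models were written anew after their published descriptions. Alternatives used limma 3.58.1 (limma-trend), DESeq2 1.42.0, other filters, covariates and scalings, a replicate block, and left-out mice. Some fits were chosen after seeing the data. They left out each mouse in turn, the mice rich in adipocyte markers, or the 2 cKOt mice that stood apart. Of these, the edgeR fits used the retained genes and dispersion trend of the fit to all mice. Omissions of a replicate number, and the alternative without cKOt ZT16 replicate 4, were planned. The test of the mean genotype difference and the choice of rhythm model were tried on simulated data. The other tests were not. The library batch came from the study's sample table. That table marks cKOt ZT16 replicate 4, which was kept.

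The members and lists were chosen with earlier results of these data known. The text names the 7 members, the receptors and partners, the 3 genes of each other list with the highest mean CPM, and the 3 genes most like each member. A gene that this rule would name is not reported here. Genes outside the rule are said to have been named after their values were seen. Promoter sequences are from RefSeq (GRCm38.p6), where 5 of the 7 members matched.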

Additional observations from a re-analysis of the deposited data

Results flagged for a closer look

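In each of the 84 groups of 5 mice (7 genes, 12 groups), the highest and the lowest mouse were compared with the nearest of the others by Dixon's ratio, which chance exceeds in about 1 in 20 groups, and 8 mice exceeded it. Angptl4 stood out at 21.3 CPM in cKOt ZT20 replicate 1, and Pdk4 at 57.5 CPM in the same mouse. Pdk4 stood out at 27.3 CPM in cKOt ZT16 replicate 4, the mouse marked in the study's sample table. Acot1 was high at 58.8 CPM in control ZT0 replicate 4 and at 52.3 CPM in cKOt ZT12 replicate 3, where Plin2 was high too at 95.3 CPM. Vldlr was low at 151 CPM in control ZT8 replicate 4 and high at 211 CPM in cKOt ZT4 replicate 5.

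The genotype difference varied between time points for Pdk4 (edgeR adjusted p of the interaction 0.000101), Acot1 (1.51e-05) and Fabp3 (0.00127). Pdk4 differed by -1.03 at ZT0 and by 1.25 at ZT8, Acot1 by -1.56 at ZT20 and by 0.21 at ZT12, and Fabp3 by -0.41 at ZT16 and by -0.93 at ZT8.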

How the results depend on the processing

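The mean differences of Angptl4, Acot1, Plin2 and Fabp3 kept their direction and their call under all 9 alternatives of scaling, test, filter, covariates, block and the marked mouse, with ranges of -1.78 to -1.61, -0.79 to -0.72, -0.50 to -0.48 and -0.64 to -0.62. The interactions of Pdk4 and Acot1 passed in the 8 alternatives run for them and whichever replicate number was left out. That of Fabp3 passed in its 8 alternatives too, but not without 1 of the 5 replicate numbers (edgeR adjusted p up to 0.0671). Depth limits little here, since the lowest count of any member in any mouse was 42.

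The mean difference of Lpl (0.14) kept its call in only 2 of the 9 alternatives. The call was lost, among others, with DESeq2 size factors (0.12), without a filter (0.13), with filterByExpr (0.13), without RUVs factors (0.15) and with DESeq2's Wald test (0.13). It was also lost without the mice rich in adipocyte markers (0.12) and without the 2 cKOt mice that stood apart (0.13). The difference ranged from 0.10 to 0.17 when replicates were left out. With the library batch in place of RUVs factors, 5 members passed at ZT4, and Lpl was at 0.11 there and Vldlr at 0.018 at ZT12. Without RUVs factors these were 0.089 and 0.019, all of opposite sign to the values reported.
Without the 2 cKOt mice that stood apart, 5 members passed the interaction, and at ZT12 Acot1 was at -0.27 and Vldlr at 0.031, again of opposite sign. The causes were not tested.

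Leaving out replicates, one number or one mouse at a time, gave mean differences of -0.17 to 0.020 for Pdk4 (0.020 without replicate number 3 and 0.012 without number 4) and -0.012 to 0.025 for Vldlr (-0.012 without replicate number 2). Members past the threshold then numbered 3 to 5 for the interaction (5 without cKOt ZT12 replicate 3), 1 to 4 at ZT4 and 1 to 3 at ZT12 (1 each without replicate number 4), and 2 to 5 for the time effect in cKOt mice (2 without number 2, or without cKOt ZT16 replicate 2 or 3). Lpl at ZT4 ranged from -0.072 to 0.040, Acot1 at ZT8 from -0.27 to 0.07, Acot1 at ZT12 from -0.34 to 0.37, Vldlr at ZT12 from -0.076 to 0.051, and Vldlr at ZT20 from -0.11 to 0.00063.

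Replicate numbers recur in every group, but residuals of mice with the same number correlated by 0.0043 on average (330 pairs), against -0.0010 (1320 pairs) for other numbers, so the numbers were not taken to pair the mice. With the replicate block the mean difference of Lpl was 0.13 and no longer called, and that of Pdk4 at ZT20 was -0.90 and newly called. No other test of a member changed its direction or call.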
